A study of Mus musculus with 8 samples.

Results

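Receptors through which hypothalamic peptides and related local peptides act were examined in isolated pituitary gonadotropes of the mouse, the cells that secrete LH and FSH. The 10 genes were listed by name, and the rule that picks them from the count table uses no measured value. They are the GnRH receptor (*Gnrhr*), the kisspeptin receptor (*Kiss1r*), the receptors of RFamide peptides (*Npffr1* and *Npffr2*), the receptors of PACAP and VIP (*Adcyap1r1*, *Vipr1* and *Vipr2*), the oxytocin receptor (*Oxtr*), the neurokinin B receptor (*Tacr3*) and the endothelin receptor type A (*Ednra*). Each of the 10 was present once among the 55523 entries of the count table. All samples were EGFP-expressing cells sorted by FACS from pituitaries of Ad4BP-BAC-EGFP mice, in which EGFP marks cells that express *Nr5a1*, and 4 samples came from females and 4 from males. No other allele or treatment is given for either sex. The age, the strain, the stage of the estrous cycle and the number of animals per sample are not given in the sources used here, so the p-values measure only the spread between these samples. The study searched for genes that act downstream of NR5A1 in the gonadotrope, and it left male replicate 1 out because its expression pattern differed from the other males. That sample is therefore shown apart below, and comparisons of the sexes used the 4 females and the other 3 males.

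GnRH is released from the hypothalamus in pulses and binds the GnRH receptor on gonadotropes, which couples mainly to Gq, phospholipase C, calcium and protein kinase C and leads to secretion of LH and FSH. PACAP acts on gonadotropes and on other pituitary cells mainly through cyclic AMP, and its receptor gene *Adcyap1r1* belongs to the same family as the VIP receptors. Kisspeptin and neurokinin B are best known for acting upstream, on the neurons that control GnRH release, whereas endothelins are peptides of the vessel wall that also act on pituitary cells.

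Sequencing depth was between 18774578 and 31302588 counts per sample. Values are given in CPM, the count of a gene scaled to a common library total with TMM factors. The smallest level considered detectable, 3 counts, was between 0.0921 and 0.146 CPM on this scale, and this floor covers counting error only, because PCR can copy 1 molecule into several reads. The defining gonadotrope genes were abundant in both sexes: *Cga* was 18050 ± 5192 CPM in females (SD, n = 4) and 34250 ± 14320 CPM in males (SD, n = 3), and *Lhb* was 5392 ± 1008 CPM and 8097 ± 1682 CPM. Both had an unadjusted p under 0.05 in edgeR, but neither passed (adjusted p = 0.187 for *Cga* and 0.189 for *Lhb*). *Fshb* was higher in males (2904 ± 2023 CPM in females, 26090 ± 7966 CPM in males, adjusted p = 0.0449 in edgeR), but it did not pass with all 8 samples (edgeR adjusted p = 0.143) or with no filter beyond 1 count (edgeR adjusted p = 0.0581), and passed in 1 of the 7 edgeR fits that left out a single sample. Together the 6 gonadotrope markers reached 23200 to 35540 CPM per female sample. For males without replicate 1 this total was 69210 to 76730 CPM, and replicate 1 had 30520 CPM. Of the 6 log2 fold changes, 4 were above 0 and 2 below (*Nr5a1* and *Foxl2*). *Foxl2* averaged 94.7 ± 15.3 CPM in females against 49.8 ± 13.9 CPM in males (edgeR adjusted p = 0.07785). *Tgfbr3l* averaged 2140 ± 357 CPM against 2851 ± 549 CPM (edgeR adjusted p = 0.319). Male replicate 1 had 16.3 CPM of *Nr5a1*, the gene whose BAC drives the EGFP, whereas the other samples had between 584 and 1266 CPM. RNA of other pituitary cells was present in all 8 samples, with between 12400 and 142300 CPM in the summed somatotrope markers *Gh* and *Ghrhr*. The somatotrope sum was higher in all of male replicates 2 to 4 (65340 to 142300 CPM) than in the females (12400 to 57870 CPM), and within the females in male replicate 1 (30150 CPM). *Gh* alone showed the same pattern, as did 11.5% of all genes tested, and neither *Gh* nor *Ghrhr* passed in edgeR (adjusted p = 0.289 and 0.373). The 3 thyrotrope markers did not go one way, and none passed in edgeR, where all 3 had an unadjusted p under 0.05, beside 19.9% of all genes. *Tshb* was 52.4 ± 28.8 CPM in females and 273 ± 57.6 CPM in males (edgeR adjusted p = 0.0525), and *Trhr* was also above the females in male replicates 2 to 4, whereas *Dio2* was 97.7 ± 31.8 CPM and 42.8 ± 5.78 CPM (edgeR adjusted p = 0.0721). Their sum was 278 to 384 CPM in male replicates 2 to 4, 84.6 to 224 CPM in females and 105 CPM in male replicate 1. The lactotrope marker *Prl* (1621 to 18130 CPM over the 8 samples) and the 3 markers of corticotropes or melanotropes, led by *Pomc* (10400 to 28890 CPM in sum), overlapped between the sexes. *Pomc* alone was 16700 ± 4710 CPM in females and 18570 ± 9319 CPM in males, so the sorted samples held much RNA of other endocrine cells. In RNA from a pool of cells, fewer cells of a type and less RNA per cell cannot be told apart.

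Levels of the receptor genes spanned more than 3 orders of magnitude in CPM. Of the 10 genes, 8 had a count in at least 1 sample and 4 had counts in all 8 samples (*Gnrhr*, *Adcyap1r1*, *Ednra* and *Kiss1r*). *Npffr2* and *Tacr3* had 0 counts in all 8 samples, so that by the floor of 3 counts a level of up to 0.0921 to 0.146 CPM per sample was not detectable. The lowest count above 0 of any member was 6 (*Oxtr* in male replicate 4), so the true limit may be higher than this floor. The plot of receptor levels by sample shows the 8 detected genes.

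**Figure D1:**
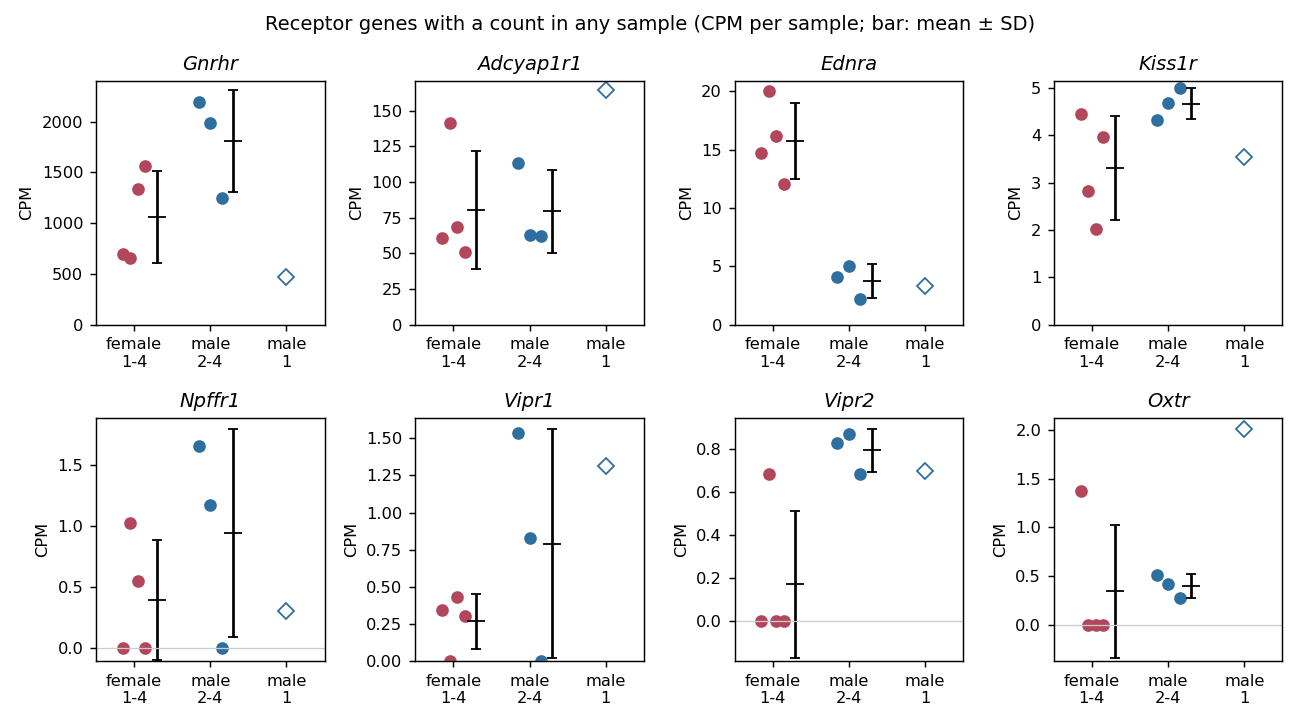
Level in CPM (y axis) of the 8 receptor genes with a count in any sample, one point per sample for female replicates 1 to 4, male replicates 2 to 4 and male replicate 1 (diamond), with the mean ± SD of the first 2 groups as bars. *Ednra* lies between 12.1 and 20.0 CPM in females and between 2.18 and 5.02 CPM in the 4 males, whereas the sexes overlap in the other genes.

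The GnRH receptor was the most abundant member in every sample. *Gnrhr* lies on chromosome 5 (GRCm38, chr5:86180754-86197901, minus strand), with 3197 bases in 3 exon blocks. It was 695, 657, 1335 and 1559 CPM in female replicates 1 to 4, while male replicates 2 to 4 had 2199, 1983 and 1245 CPM. Male replicate 1, at 473 CPM, was below all other samples. The sexes overlapped, because male replicate 4 was below female replicates 3 and 4. The mean was 1062 ± 455 CPM in females (SD, n = 4) and 1809 ± 500.2 CPM in males (SD, n = 3). Fitted as males over females, the log2 fold change came to 0.74 (SE 0.36, 95% interval -0.11 to 1.58), and it did not pass the edgeR quasi-likelihood test (adjusted p = 0.318). An exact two-sided permutation test, with 35 ways to assign 3 of 7 samples to the males, gave p = 0.171, where the smallest possible value was 0.0286. The spread within a sex was large, with a ratio of highest to lowest sample of 2.37 in females and 1.77 in male replicates 2 to 4.

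The region upstream of *Gnrhr* is shown because the cells were collected by a reporter of *Nr5a1*, and that of *Ednra* because it was the member that differed between the sexes. Both are the 250 bases before the transcript start in RefSeq (GRCm38.p6), written 5′ to 3′ on the strand of the gene, for *Gnrhr* chr5:86197902-86198151 and for *Ednra* chr8:77724453-77724702, both on the minus strand. Capitals mark matches, on either strand, to AAGGTCA or AAGGCCA (the NR5A1 motif), TGACGT (the core of the cyclic AMP response element) and TGANTCA (the AP-1 motif).
Gnrhr: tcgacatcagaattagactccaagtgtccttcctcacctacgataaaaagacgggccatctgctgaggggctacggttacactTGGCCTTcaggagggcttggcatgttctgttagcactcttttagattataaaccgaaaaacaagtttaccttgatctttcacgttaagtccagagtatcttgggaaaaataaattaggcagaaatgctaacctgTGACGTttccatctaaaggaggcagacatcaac
Ednra: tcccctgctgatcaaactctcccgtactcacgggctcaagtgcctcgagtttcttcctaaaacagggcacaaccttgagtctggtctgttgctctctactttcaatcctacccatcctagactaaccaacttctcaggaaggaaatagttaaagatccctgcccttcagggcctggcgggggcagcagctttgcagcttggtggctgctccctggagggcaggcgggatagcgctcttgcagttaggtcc
The *Gnrhr* sequence held AAGGCCA, read on the opposite strand as TGGCCTT, from 167 bases before the start, and TGACGT from 33 bases before the start. These matches did not overlap each other. The *Ednra* sequence held no match, which says only that these letters are not in this window. Its RefSeq start, at 77724452, also differs from that of the gene annotation used for lengths, at 77724464. The annotated gene therefore begins inside the printed window, near its end. Base by base, 16 of the 50 bases after the RefSeq start matched the start of an annotated transcript, which a small shift can give. For *Gnrhr* all 50 matched. Promoters were found for 10 of the 10 genes, of which 2 held an NR5A1 match, *Gnrhr* and *Npffr2*, the latter with AAGGCCA from 143 bases before its start. TGACGT was found in the window of *Tacr3*, from 59 bases before its start, and of *Gnrhr*. Among the 32851 promoter windows of the same length, 9.09% held either NR5A1 spelling (4.08% AAGGTCA, 5.24% AAGGCCA), 6.47% held TGACGT and 6.75% held TGANTCA. A match is a description of the sequence and not evidence of a binding site.

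The PACAP receptor was the second most abundant member. *Adcyap1r1* lies on chromosome 6 (chr6:55451978-55501451, plus strand), with 6601 exonic bases. It was 60.7, 141.5, 68.4 and 50.6 CPM in female replicates 1 to 4, while male replicates 2 to 4 had 113, 63.0 and 62.0 CPM. Male replicate 1 had 164.5 CPM, above all other samples, while its *Gnrhr* was the lowest. The sexes overlapped throughout, with means of 80.3 ± 41.5 CPM in females and 79.4 ± 29.4 CPM in males. The log2 fold change was -0.05 (SE 0.41, 95% interval -1.03 to 0.92, edgeR adjusted p = 0.964), and its direction turned to 0.32 with all 8 samples, to 0.40 without female replicate 2, and to 0.09 without male replicate 3 or 4. The interval still allows differences of about 1 on the log2 scale in either direction. The exact permutation test gave p = 0.914.

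The VIP receptors, which bind VIP and PACAP with similar affinity, were near the limit of detection. *Vipr1* (chr9:121642716-121672954, plus strand) had 8, 0, 14 and 7 counts in female replicates 1 to 4, that is at most 0.430 CPM. It had 39, 22 and 0 counts in male replicates 2 to 4, at most 1.54 CPM, and 30 counts in male replicate 1. The sexes overlapped because 1 sample of each had 0 counts. *Vipr2* (chr12:116077726-116146261, plus strand) had 0, 14, 0 and 0 counts in the females. It had 21, 23 and 15 counts in male replicates 2 to 4 and 16 in male replicate 1, between 0.681 and 0.868 CPM. Every male sample thus had counts and 3 of the 4 females had none, but female replicate 2, at 0.683 CPM, was just above male replicate 4, at 0.681 CPM. The log2 fold change of *Vipr2* was 2.19 (SE 1.6, edgeR adjusted p = 0.518, exact permutation p = 0.0857). Without female replicate 2, in which case all remaining females had 0 counts, the adjusted p was 0.0862. For *Vipr1* the log2 fold change was 1.49 (SE 1.40, edgeR adjusted p = 0.632, exact permutation p = 0.343). With 1 sample left out it ranged from 0.59 without male replicate 2 to 2.07 without male replicate 4.

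Kisspeptin receptor RNA was low and present in every sample. *Kiss1r* (chr10:79916971-79922273, plus strand) had 104, 58, 66 and 92 counts in female replicates 1 to 4, or 4.45, 2.83, 2.03 and 3.98 CPM. Male replicates 2 to 4 had 4.33, 4.68 and 5.0 CPM and male replicate 1 had 3.54 CPM. Female replicate 1 was above male replicate 2, so the sexes overlapped. The means were 3.32 ± 1.1 CPM and 4.67 ± 0.331 CPM, with a log2 fold change of 0.46 (SE 0.31, 95% interval -0.27 to 1.19, edgeR adjusted p = 0.478, exact permutation p = 0.143). Its exons share 247 of 3856 bases with *R3hdm4* on the opposite strand, which had between 52.6 and 69.9 CPM in the 8 samples. Counting did not use strand, so a read in that stretch cannot be ascribed to either gene, and at the default settings of the counting tool such a read is counted for neither.

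Receptors of the RFamide peptides and of oxytocin were detected in some samples only. *Npffr1*, the receptor of the gonadotropin-inhibitory peptide RFRP-3 encoded by *Npvf*, lies at chr10:61595492-61628565 (plus strand) and had 0, 21, 18 and 0 counts in the females, 42, 31 and 0 in male replicates 2 to 4 and 7 in male replicate 1. Its highest level was 1.66 CPM in male replicate 2 (male mean 0.942 ± 0.851 CPM, female mean 0.394 ± 0.494 CPM), and with a 0 in both sexes the groups overlapped (log2 fold change 1.21, SE 1.71, edgeR adjusted p = 0.769, exact permutation p = 0.4). Without female replicate 2 the log2 fold change of *Npffr1* was 2.24 (female mean 0.184 CPM). Without male replicate 2 it was 0.53 (male mean 0.585 CPM). Its relative *Npffr2* (chr5:89527429-89583740, plus strand), which binds neuropeptide FF, was at 0 counts throughout, as was *Tacr3* (chr3:134829007-134934579, plus strand). *Oxtr* (chr6:112473683-112489943, minus strand) had 32 counts in female replicate 1 and 0 in the other females. It had 13, 11 and 6 counts in male replicates 2 to 4 and 46 in male replicate 1, so its 2 highest levels, 1.37 and 2.01 CPM, were in 1 sample of each sex. *Oxtr* did not pass the filter on low counts and entered no edgeR test (exact permutation p = 0.743).

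The endothelin receptor type A was higher in females. *Ednra* (chr8:77663031-77724464, minus strand, 5476 exonic bases in 8 blocks) encodes a Gq-coupled receptor best known from vascular smooth muscle, which binds EDN1 and EDN2 with high affinity. It had 345, 410, 526 and 280 counts in female replicates 1 to 4, or 14.75, 20.0, 16.1 and 12.1 CPM. It had 103, 133 and 48 counts in male replicates 2 to 4, or 4.06, 5.02 and 2.18 CPM, and 76 counts or 3.32 CPM in male replicate 1. All 4 males were below all 4 females, a pattern shown by 3.93% of the 20152 genes tested. The means were 15.75 ± 3.29 CPM in females (SD, n = 4) and 3.75 ± 1.45 CPM in males (SD, n = 3). The level was 4.30-fold higher in females, with a log2 fold change of -2.10 for males over females (SE 0.33, 95% interval -2.88 to -1.32, edgeR adjusted p = 0.0350). The exact permutation test gave p = 0.0286, the smallest it can give. *Ednra* was the only one of the 7 members tested that passed the threshold of an adjusted p of 0.05, beside 2.34% of all genes tested in either direction and 1.35% in the direction of females. It was also the only detected member whose samples did not overlap between the sexes, beside 22.3% of all genes.

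**Figure D2:**
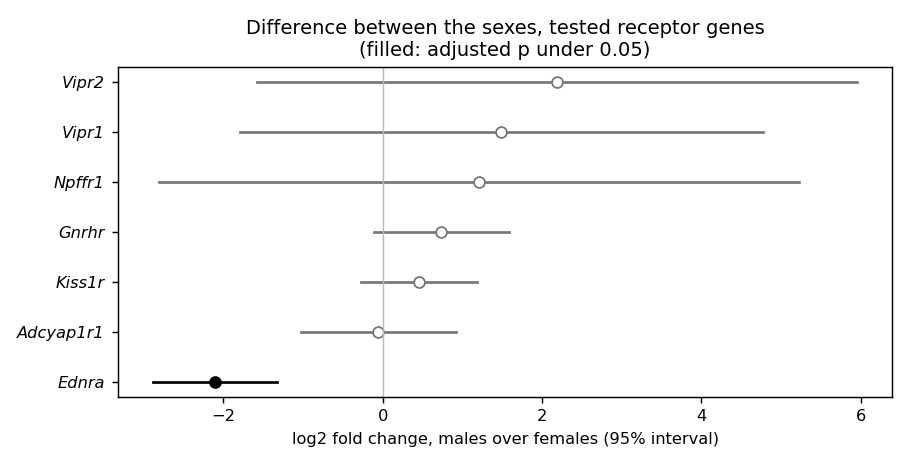
Log2 fold change of males (replicates 2 to 4) over females (replicates 1 to 4) on the x axis for the 7 receptor genes tested, with the 95% interval as a line and a filled point where the adjusted p was under 0.05. *Ednra*, at -2.10, is the gene whose call passed, and the intervals of *Vipr1*, *Vipr2* and *Npffr1* are the widest.

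With male replicate 1 included, the *Ednra* difference was -2.12 on the log2 scale (edgeR adjusted p = 0.0320), a test that 0.342% of all genes passed. It also passed in DESeq2 (adjusted p = 5.05e-07) and in the edgeR exact test (adjusted p = 3.15e-05), which called 11.6% and 5.1% of all genes. With no filter beyond 1 count it did not pass (edgeR adjusted p = 0.0525). Leaving out any 1 of the 7 samples kept the direction but not the call, with log2 fold changes between -2.36 and -1.83 and adjusted p between 0.0588 and 0.113 (edgeR). The exons of *Ednra* share 91 bases with *4933431K23Rik* on the opposite strand, which was between 0.276 and 1.63 CPM in females, at 0 in male replicates 2 to 4 and at 1.14 CPM in male replicate 1. These levels are below the lowest of *Ednra* in either sex. Its log2 fold change was -7.61 (edgeR adjusted p = 0.0617), in the same direction as that of *Ednra*. Any part of the shared bases in the *Ednra* difference was not tested.

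Because *Ednra* is also expressed by other cells of the gland, markers of these cells were set beside it. The 6 endothelial markers summed to between 459 and 599 CPM in females and between 477 and 636 CPM in male replicates 2 to 4, so they overlapped. The 7 markers of pericytes and stromal cells summed to between 227 and 254 CPM in females and between 254 and 514 CPM in male replicates 2 to 4. That sum was led by *Rgs5* (108 ± 15.9 CPM in females, 278 ± 126 CPM in males), whereas 5 of the 7 log2 fold changes were below 0, as for *Ednra*, with a median of -0.41 beside -0.03 over all genes. None of the 7 passed the edgeR test, where 3 had an unadjusted p under 0.05 (*Rgs5*, *Col1a1* and *Pdgfrb*), beside 19.9% of all genes, and DESeq2, which called 11.6% of all genes, called *Rgs5* and *Col1a1*. Without *Rgs5*, a choice made after seeing the data, the other 6 markers summed to 116 to 168 CPM in females and 105 to 114 CPM in male replicates 2 to 4, and to 112 CPM in male replicate 1, so that all 4 males were below the females. *Col1a1* was 8.52 ± 3.28 CPM in females and 3.65 ± 0.662 CPM in males (edgeR adjusted p = 0.0945). The 4 stem cell or folliculostellate markers went with *Ednra*, at 248 to 385 CPM in females and 142 to 174 CPM in male replicates 2 to 4. Among them *Sox9*, which was most abundant, fell by 1.02 on the log2 scale in males (edgeR adjusted p = 0.0417, between 0.058 and 0.135 with 1 sample left out, 0.0665 with no filter beyond 1 count, and 0.438 with all 8 samples). In male replicate 1 the same sum was 305 CPM, within the range of the females, while *Ednra* was within the range of the other males. The 4 erythroid markers also went with *Ednra*, with 4 of 4 log2 fold changes below 0 and a median of -1.0, although their sum overlapped between the sexes (177 to 512 CPM in females, 77.5 to 214 CPM in male replicates 2 to 4, 48.1 CPM in male replicate 1). None of the 4 passed in edgeR, where *Hbb-bs* had an unadjusted p under 0.05, and DESeq2 called *Hbb-bs*. *Hbb-bs*, a beta globin gene, was between 62.7 and 217 CPM in females. Male replicates 2 to 4 had 20.8 to 53.6 CPM of it and male replicate 1 had 18.9 CPM, so that all 4 males were below the females. None of these 21 markers was at 0 in all samples. The part of other cells in the *Ednra* difference was not tested further.

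**Figure D3:**
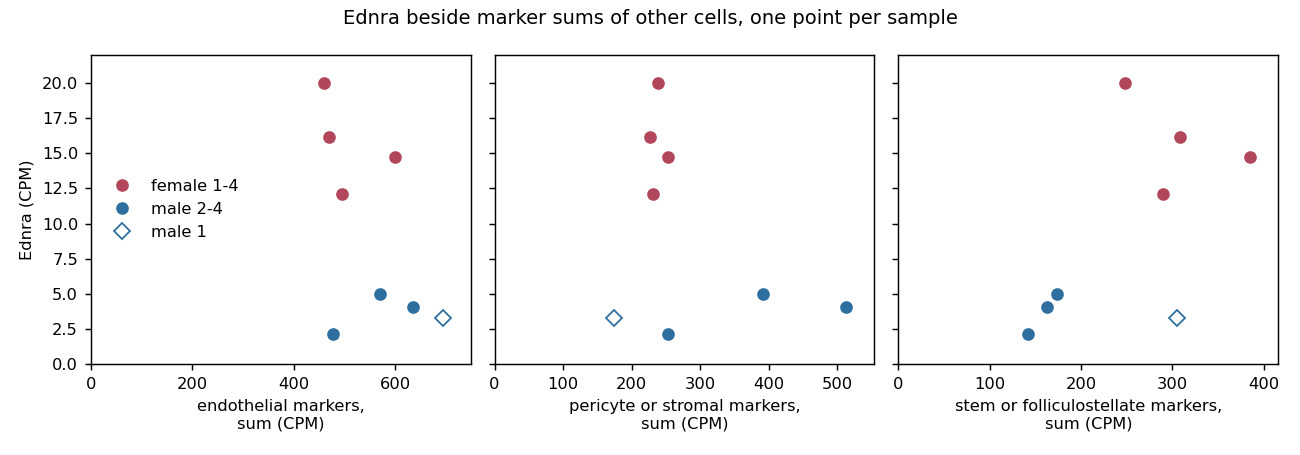
Level of *Ednra* in CPM (y axis) against the summed CPM of endothelial, pericyte or stromal, and stem or folliculostellate markers (x axes), one point per sample, with male replicate 1 as a diamond. The 4 females lie above the 4 males on the y axis, male replicate 1 lies among the females on the x axis of the last panel (305 CPM), and the middle sum is led by *Rgs5*, without which the 4 males lie below the females there.

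The other endothelin receptor did not show the same pattern. *Ednrb*, which binds all endothelins, was 158 ± 38.8 CPM in females and 139 ± 28.4 CPM in male replicates 2 to 4 (log2 fold change -0.22, edgeR adjusted p = 0.670), and 15.9 CPM in male replicate 1. Whether the difference between the sexes itself differed between *Ednra* and *Ednrb* was not tested. Per kilobase of exons, *Ednrb* was 18.4, 8.74, 12.7 and 13.1 times the level of *Ednra* in female replicates 1 to 4. The same ratio was 51.6, 37.0 and 63.4 in male replicates 2 to 4, above that of every female, and 6.15 in male replicate 1, below that of every female.

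To compare genes of different length, CPM was divided by the length of the exons in kilobases. *Gnrhr* had 332 ± 142 CPM per kb in females and 566 ± 157 CPM per kb in males, and ranked between 57 and 213 of 55190 entries across the 8 samples. *Adcyap1r1* followed, with 12.2 ± 6.28 and 12.0 ± 4.45 CPM per kb. *Gnrhr* exceeded *Adcyap1r1* in every sample, by between 9.59 and 63.6 times in females, between 40.1 and 65.0 times in male replicates 2 to 4, and by 5.94 times in male replicate 1. *Adcyap1r1* in turn exceeded *Ednra* in every sample, by at least 3.41 times. The order of the next genes differed between the sexes, since *Ednra* was between 2.14 and 5.61 times *Kiss1r* in the females and between 0.307 and 0.755 times *Kiss1r* in the 4 males. *Kiss1r* was 0.861 ± 0.285 CPM per kb in females and 1.21 ± 0.0857 in males. Below it, *Npffr1*, *Oxtr*, *Vipr2* and *Vipr1* had at most 0.476 CPM per kb, overlapped one another, and lay under the lowest *Kiss1r* value of 0.525. *Gnrhr* made up between 84.4% and 98.0% of the summed CPM per kb of the 10 genes, with the lowest share in male replicate 1.

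**Figure D4:**
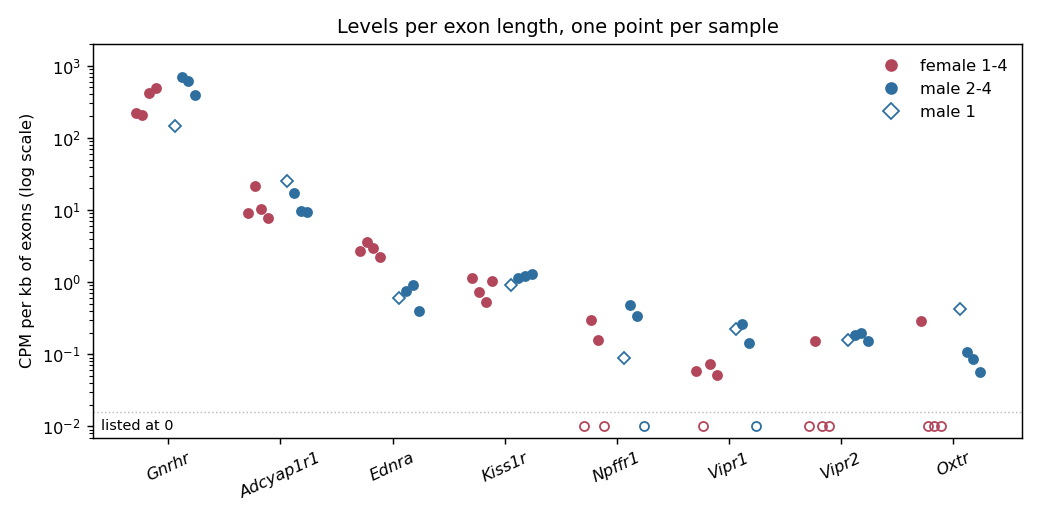
Level in CPM per kilobase of exons (y axis, log scale) of the 8 detected receptor genes in each sample, with open circles under the dotted line for samples listed at 0 and a diamond for male replicate 1. *Gnrhr* lies above *Adcyap1r1* in every sample, and *Ednra* lies above *Kiss1r* in the females and below it in the males.

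Relative to other gonadotrope genes, the level of *Gnrhr* depended on the gene it was set against. The ratio of *Gnrhr* to *Nr5a1* in CPM was between 0.686 and 1.32 in females and between 2.13 and 2.88 in male replicates 2 to 4, without overlap, and 29.1 in male replicate 1. *Nr5a1* itself was 1068 ± 189 CPM in females and 716 ± 116 CPM in males, a difference that did not pass the test (log2 fold change -0.61, edgeR adjusted p = 0.130). The ratio to *Cga*, the common subunit of the gonadotropins, overlapped between the sexes, at 0.0352 to 0.104 in females and 0.0246 to 0.0805 in male replicates 2 to 4, with 0.0369 in male replicate 1. The ratio to *Lhb* also overlapped, at 0.135 to 0.239 in females and 0.198 to 0.262 in male replicates 2 to 4, whereas male replicate 1 was below all of these at 0.0507. The ratio to *Fshb* was between 0.213 and 0.953 in females and between 0.0642 and 0.0737 in male replicates 2 to 4, and 0.0822 in male replicate 1. These ratios are descriptions, and no test was made of them.

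The genes whose pattern over the 8 samples was nearest to that of *Gnrhr* were sought among 9852 named genes with a mean of at least 10 CPM. The measure was the root mean square difference of log2(CPM + 1), after each gene was centred on its own mean. The 5 nearest were *Zfp54* (0.227), *Spock3* (0.230), *Unc80* (0.246), *Dnajc14* (0.253) and *Chmp1b* (0.255), whereas *Gnrhr* deviated by 0.754 from its own mean and the median over all candidates was 0.825. *Unc80*, for example, was 57.6, 58.5, 143 and 128 CPM in female replicates 1 to 4, 51.0 CPM in male replicate 1 and 161, 183 and 160 CPM in male replicates 2 to 4. Like *Gnrhr*, it was lowest in male replicate 1 and higher in female replicates 3 and 4 than in the other females. This likeness follows from how the 5 genes were chosen. As for *Gnrhr*, to which they were matched, none of the 5 passed the test between the sexes (edgeR adjusted p between 0.127 and 0.603). *Dnajc14* shares its locus with another entry.

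The pathway downstream of the GnRH receptor was followed with 40 genes of GnRH signalling, all of which were tested. Of these, 1 was higher in males and 2 were higher in females, beside 0.983% and 1.35% of all genes. Among the 40, 15 had log2 fold changes above 0 and 25 below 0, with a median of -0.33, beside -0.03 over all genes tested. *Plcb1*, a phospholipase C that Gq activates, was 10.7 ± 1.95 CPM in females and 24.7 ± 1.76 CPM in males (log2 fold change 1.17, SE 0.18, edgeR adjusted p = 0.0346). *Prkcd*, a protein kinase C activated by diacylglycerol, was 43.6 ± 16.9 CPM in females and 8.15 ± 1.90 CPM in males (log2 fold change -2.45, SE 0.38, edgeR adjusted p = 0.0346). *Camk2b*, a subunit of the calcium- and calmodulin-dependent kinase II, was 157 ± 13.9 CPM and 90.3 ± 4.52 CPM (log2 fold change -0.83, SE 0.13, edgeR adjusted p = 0.0359). Male replicate 1 was within or beyond the females for *Plcb1* (8.78 CPM) and *Prkcd* (29.4 CPM), and for *Camk2b*, at 137 CPM, it was just below the lowest female. Without male replicate 1, 12 of the 40 genes had an unadjusted p under 0.05 in edgeR, beside 19.9% of all genes. With all 8 samples, 0 of 39 genes tested passed in edgeR, and 5 had an unadjusted p under 0.05, beside 10.2% of all genes (1997 of 19587). With no filter beyond 1 count, *Prkcd* alone kept its call (edgeR adjusted p = 0.0483, and 0.0526 for *Plcb1* and 0.0624 for *Camk2b*). Each of *Plcb1*, *Prkcd* and *Camk2b* kept its call in 1 of the 7 edgeR fits that left out a single sample, with adjusted p up to 0.126, 0.117 and 0.136. The list then had 1 call without female replicate 1, 3 without female replicate 4 and 0 without any other sample.

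**Figure D5:**
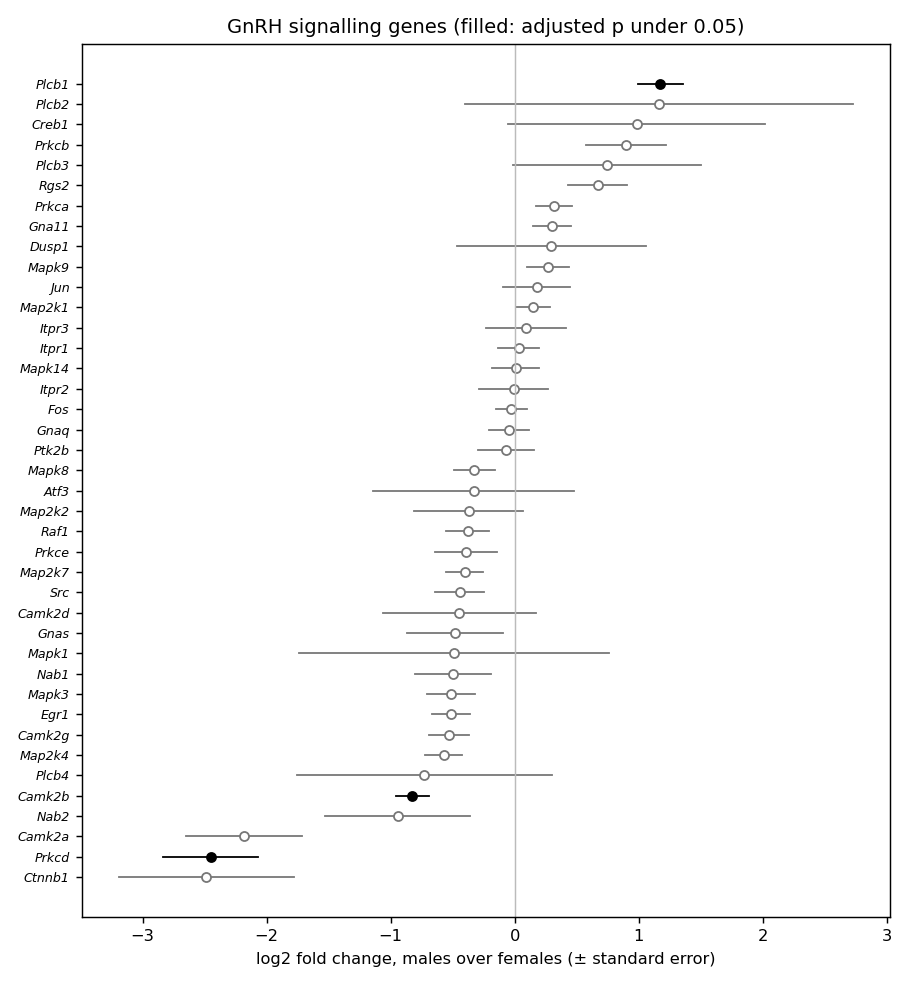
Log2 fold change of males (replicates 2 to 4) over females (replicates 1 to 4) on the x axis for the 40 genes of GnRH signalling, ± standard error, with filled points where the adjusted p was under 0.05. *Plcb1* lies to the right, at 1.17, and *Camk2b* and *Prkcd* to the left, at -0.83 and -2.45.

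None of the 3 most abundant genes of the pathway passed the edgeR test, where *Egr1* had an unadjusted p under 0.05. *Fos*, an immediate early gene of GnRH stimulation, was 7336 ± 791 CPM in females and 7338 ± 405 CPM in males (log2 fold change -0.03, edgeR adjusted p = 0.934). *Gnas*, the stimulatory G protein subunit, was 4946 ± 2470 CPM and 3611 ± 329 CPM (edgeR adjusted p = 0.564). *Egr1*, the transcription factor through which GnRH acts on *Lhb*, was 2455 ± 339 CPM and 1754 ± 216 CPM. All of male replicates 2 to 4 were below the females in *Egr1*, but the difference did not pass (log2 fold change -0.51, edgeR adjusted p = 0.135), and male replicate 1 was highest, at 3467 CPM.

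Precursor genes of the ligands were mostly low or undetected. Of 11 ligand genes, 6 were tested and 0 passed in edgeR, where 2 had an unadjusted p under 0.05 (*Vip* and *Edn1*), beside 19.9% of all genes (4009 of 20152). DESeq2 and the edgeR exact test each called 1 (*Vip*), beside 11.6% and 5.1% of all genes. The median log2 fold change of the 6 was -1.09. *Npvf*, *Adcyap1* and *Tac2* had 0 counts in all 8 samples. *Kiss1* was also listed at 0, but all 779 of its exonic bases in GENCODE lie within exons of *Gm28040*, so at the default settings reads in these bases would be counted for neither gene. *Gm28040*, which was looked at after its values were seen, had 13, 9, 18 and 19 counts in female replicates 1 to 4 and 0 in all 4 males. Beside these, *Gnrh1* was detected in male replicate 1 (0.568 CPM) and no other sample. *Edn2* and *Edn3* were the most abundant of the list by their mean over the samples. *Edn3* was 18.3 ± 3.28 CPM in females and 20.6 ± 1.78 CPM in males (edgeR adjusted p = 0.751). *Edn2* was between 3.66 and 56.6 CPM in females and between 9.85 and 11.2 CPM in male replicates 2 to 4 (edgeR adjusted p = 0.615). *Edn1*, the main endothelin of the vessel wall, was 2.28 ± 0.345 CPM and 0.990 ± 0.611 CPM, with all of male replicates 2 to 4 below the females and male replicate 1 within them at 2.45 CPM (edgeR adjusted p = 0.215). *Vip* was 3.15 ± 1.21 CPM and 1.03 ± 0.329 CPM, with all 4 males below the females (edgeR adjusted p = 0.113). *Oxt* was at most 1.71 CPM in females and 2.41 CPM in males, and *Npff* was at most 1.37 CPM in females and 4.24 CPM in male replicate 1.

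Relatives of the receptors that are not among the 10 gave 1 call in edgeR and 3 in DESeq2 (*Galr1*, *Sctr* and *Tacr1*), which called 11.6% of all genes. Of 15 genes, 10 were tested, 0 were higher in males and 1 was higher in females in edgeR (0.983% and 1.35% of all genes). Their median log2 fold change was -0.44, also when the gene at 0 in males was set against the floor of 3 counts. That gene was *Galr1*, a galanin receptor, which was between 2.83 and 10.1 CPM in the females and had 0 counts in all 4 males (edgeR adjusted p = 0.0296). It passed the filter on low counts only through the females, so its p-values describe this pattern and add no support to it. The call held with all 8 samples (edgeR adjusted p = 0.0342) and in 1 of 7 fits with a sample left out, where adjusted p was between 0.0490 and 0.0734. Against the floor of 3 counts in a male library (0.136 CPM), the female mean of 6.19 CPM was 45.5 times as high. This value rests on the chosen floor and leaves out the spread of the females. Other receptors of hypothalamic hormones were present without a call. *Ghrhr*, the GHRH receptor of somatotropes, was 11.1 ± 10.01 CPM in females and 32.2 ± 26.3 CPM in males (edgeR adjusted p = 0.373). *Crhr1*, the CRH receptor, was 10.6 ± 3.06 CPM and 6.85 ± 1.35 CPM (edgeR adjusted p = 0.293), and *Avpr1b*, the pituitary vasopressin receptor, was 3.06 ± 0.751 CPM and 2.95 ± 0.964 CPM (edgeR adjusted p = 0.930). *Tacr1*, the substance P receptor, was between 0.390 and 8.30 CPM in females and at most 0.491 CPM in males (edgeR adjusted p = 0.181). *Sctr*, the secretin receptor, was between 0.732 and 3.89 CPM in females and at most 0.699 CPM in all 4 males (edgeR adjusted p = 0.180). *Glp1r* reached 5.19 CPM in females, 4.98 CPM in male replicate 1 and 4.09 CPM in the other males, and *Qrfpr* reached 4.05, 1.0 and 3.17 CPM in the same order. *Crhr2* exceeded 1 CPM in male replicate 1 alone (1.66 CPM), and *Avpr2* in that sample (3.14 CPM) and 1 female (1.20 CPM).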

How the data were processed

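RNA of EGFP-positive cells sorted from pituitaries was prepared with an RNeasy micro kit, and libraries were made with the NEBNext Single Cell/Low Input kit. The authors deposited unnormalized counts per gene, made with cutadapt, STAR on mm10 (GRCm38) and featureCounts at default settings, which do not use strand and leave out reads that overlap several genes. The annotation is not given in the sources used here. Many entries carry MSTRG names, as transcript assembly gives them, and a locus can be split over several entries.

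From the deposited counts, CPM values were computed with TMM factors over the 8 samples. Male replicates 2 to 4 were tested against female replicates 1 to 4 with the edgeR quasi-likelihood test (version 4.0.16, R 4.3.3) after filterByExpr, with Benjamini-Hochberg adjustment over the 20152 genes tested and a threshold of 0.05. An SE is the absolute log2 fold change divided by the square root of F. The exact permutation test used mean log2(CPM + 1) over all 35 assignments of the 7 samples. Levels per kilobase used merged exons of GENCODE, and motifs were searched in RefSeq promoters with Python 3.11.15 (pandas 2.3.3, scipy 1.17.1). On simulated counts, the edgeR test recovered 47 of 100 genes with a log2 change of 2 and 91 of 99 tested with a change of 4, with 9 false among 147 calls (19190 genes). The changed genes were drawn only from those above a minimum expected count. The recovery thus does not hold for genes with few counts, such as *Vipr1*, *Vipr2* and *Npffr1*.

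The rule for the members uses no measured value, but the members and lists were drawn up with earlier results of these data known. Named genes are all 10 members, the genes of each list past the threshold, the 3 genes of each list with the highest mean, ligands and relatives with at least 1 CPM in a sample, and the 5 genes most like *Gnrhr* without Gm or Rik names. Marker genes beside *Ednra* and the antisense neighbours were named for their bearing on a member. Alternatives were DESeq2 (version 1.42.0), the edgeR exact test, 3 other scalings, 2 other filters, all 8 samples, a replicate block, robust dispersion, counts summed per locus, pseudocounts of 0.5 and 0.1, and leaving out each sample.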

Additional observations from a re-analysis of the deposited data

Results flagged for a closer look

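Of the 16 groups of 4 samples tested (8 detected receptor genes in each sex), 3 held a sample far from the others by Dixon's criterion. Chance gives about 1 in 20 groups for continuous values, a rate that does not hold where 3 samples are at exactly 0, since any count in the other sample then stands apart, as in both groups of females here. *Vipr2* was 0.683 CPM in female replicate 2 and 0 in the other females. *Oxtr* was 1.37 CPM in female replicate 1 and 0 in the other females. In the males, *Oxtr* reached 2.01 CPM in replicate 1, whereas replicates 2 to 4 had 0.272 to 0.512 CPM. The 3 samples that stood apart had between 14 and 46 counts.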

How the results depend on the processing

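*Gnrhr*, *Kiss1r*, *Vipr1*, *Vipr2* and *Npffr1* kept their direction and stayed short of the threshold under all alternatives that gave a value (for *Gnrhr*, log2 fold changes between 0.47 and 1.0 and adjusted p between 0.215 and 0.83 over 18 alternatives). *Adcyap1r1* turned to 0.32 with all 8 samples and ranged from -0.39 to 0.40 when samples were left out one at a time, with 0.40 without female replicate 2 and 0.09 without male replicate 3 or 4, and it was never called. *Ednra* kept its direction in 18 of 18 alternatives and its call in 9, with adjusted p between 5.05e-07 (DESeq2) and 0.216. It did not pass with no filter beyond 1 count (-2.09, edgeR adjusted p = 0.0525), or with any single sample left out (-2.36 to -1.83). The number of receptor genes called was then 0, while 1 or 2 of the 6 to 8 tested had an unadjusted p under 0.05. Over all genes that share was 13.7% with no filter beyond 1 count and between 14.6% and 20.1% with 1 sample left out. The mean of *Kiss1r* in males was 4.23 CPM by library size alone.

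Over all genes, 471 were called. The number was 2329 with DESeq2, 1027 with the edgeR exact test, 808 by library size alone, 177 with no filter beyond 1 count, 67 with all 8 samples and between 88 and 171 with 1 sample left out. Library size alone shifted the median of all log2 fold changes from -0.03 to -0.24, and 133 genes were then higher in males and 675 in females, compared with 198 and 273. For GnRH signalling, 3 genes were called, 6 with DESeq2, 5 by library size alone, 1 with no filter beyond 1 count, 0 with all 8 samples and between 0 and 3 with 1 sample left out. DESeq2 called 1 ligand gene and 3 relatives, compared with 0 and 1, the edgeR exact test called 1 ligand gene (*Vip*), and counts summed per locus gave 1 call, that of the locus of *Kiss1* and *Gm28040*, where *Kiss1* itself had 0 counts. That locus had 0 counts in all 4 males and passed the filter only through the females, so the call adds no support. Its other entry, *Golt1a*, had 5 counts in female replicate 2 and 0 elsewhere. Without *Rgs5*, the mean sum of pericyte or stromal markers was 129.9 CPM in females and 109 CPM in males. The relatives had between 0 and 1 call with 1 sample left out. For the 4 gonadotrope genes, 1 was called, 0 with no filter beyond 1 count, where 4 had an unadjusted p under 0.05 (13.7% of all genes), 0 with all 8 samples and between 0 and 1 with 1 sample left out. The cause of these changes was not tested.

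The replicate numbers did not pair the samples, since the correlations of same-numbered deviations were -0.0283, 0.00206 and -0.00213. With a replicate block, edgeR called 0 of all genes, where 2954 had an unadjusted p under 0.05. It called 0 receptor genes, 0 genes of GnRH signalling, 0 relatives and 0 gonadotrope genes, and *Ednra* was then -2.18 (adjusted p = 0.216). Depth limits *Vipr1*, *Vipr2*, *Npffr1* and *Oxtr*, which had at most 46 counts in any sample, and with 3 males against 4 females the exact test cannot give a p below 0.0286.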
